A study of Homo sapiens with 6 samples.

Results

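The genes described here were 56 listed members of the Toll-like receptor, NF-kB and cytokine signaling pathways, taken by symbol from the deposited count and FPKM tables. Of the 56, 55 were matched to a feature, and 50 of these passed the filter on low counts and were tested among 14071 features, out of 23406 in the tables. The study sequenced RNA of Hep-3B, an established human hepatocellular carcinoma line with an epithelial phenotype, to compare cells in which NXN was knocked down with control cells. NXN encodes nucleoredoxin, a thioredoxin-family protein. There were 6 libraries: 3 of cells carrying a control shRNA (shControl) and 3 of cells carrying an shRNA against NXN (shNXN), each from day 7, day 9 or day 11. All cells had been transduced with lentivirus and selected with puromycin for 1 week, and no stimulus of the pathways was applied according to the labels. The labels give 1 library per group and day, do not say which shRNA sequence was used, and do not state separate cultures, so p-values measure the spread between these libraries, which may be technical and which includes the days.

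Toll-like receptors and the receptors of interleukin 1 and tumor necrosis factor pass their signal through adaptor proteins, IRAK kinases and TRAF ubiquitin ligases to the TAK1 and IKK kinase complexes. IKK marks the IkB inhibitors for degradation, after which the NF-kB dimers enter the nucleus and switch on chemokines, adhesion molecules and their own inhibitors, among them IkBα and A20. Interleukin 6 and related cytokines signal through the shared receptor subunit gp130, the JAK kinases and STAT3, and SOCS proteins feed back on them. In hepatocytes these pathways are known for the acute-phase response and for chemokine release.

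Library totals ran from 15349382 to 16332589 counts. NXN was lower in shNXN cells, at 181, 138 and 143 CPM in shControl and 42.7, 47.5 and 39.5 CPM in shNXN on days 7, 9 and 11, and its groups did not overlap. The log2 fold change of NXN was -1.83 (edgeR quasi-likelihood test, standard error 0.16 and Benjamini-Hochberg adjusted p of 0.0378; exact permutation test, two-sided p = 0.1, the smallest that 3 against 3 libraries allow). Without the shControl library of day 7 or 11 or the shNXN library of day 7 or 9, NXN was not called (edgeR adjusted p = 0.0633 to 0.225). All 9 hepatocyte and hepatoma markers were at 1 FPKM or more in every library, with a summed level of 7644 to 16521 FPKM in shControl and 3944 to 9029 FPKM in shNXN. ALB alone had a mean of 7667 FPKM in shControl and 2102.5 FPKM in shNXN. The means of AFP, APOB and TTR were also lower in shNXN, and those of APOA1, TF, SERPINA1, HNF4A and FGB were higher. Of the 7 macrophage and leukocyte markers, CD163 and MARCO were at 0 and PTPRC was at or below 0.04 FPKM, whereas CD68 and LYZ, which epithelial cells can express, carried most of the list's summed level of 131 to 169.8 FPKM in shControl and 175 to 293 FPKM in shNXN. The 4 endothelial markers measured summed to at most 0.02 FPKM, with VWF and KDR at 0, and the 5 stellate cell and fibroblast markers to between 2.25 and 4.4 FPKM. The part that the differences in hepatocyte markers, CD68 and LYZ play in the results below was not tested. Less RNA of a gene per cell cannot be told apart from fewer cells expressing it.

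The comparison of shNXN with shControl by day asks how NXN knockdown went with the level of each member. The 4 Toll-like receptors tested had lower counts in shNXN on each of the 3 days, and the 4 NF-kB subunits, the inhibitors NFKBIA and TNFAIP3 and the chemokines CXCL1 and CXCL2 had higher counts. Not all inhibitors and chemokines did: the log2 fold change was above 0 in 5 of 6 inhibitors and in 5 of 10 chemokines, cytokines and ICAM1. CXCL8 and CXCL10 were lower on each day. The steps between the receptors and the subunits went both ways, with a log2 fold change above 0 in 7 of 9 adaptors, IRAK kinases and TRAF ligases and in 2 of 6 members of the TAK1 and IKK complexes. Without regard to the days, 0 of 50 members had an adjusted p under 0.05 in edgeR's quasi-likelihood test, against 3.39% of all features tested, and 25 had an unadjusted p under 0.05, against 32.9% of all features. With the day as a replicate block, which pairs the libraries of the same day, 23 of 50 members were called, against 23.3% of all features. Of these, 13 were higher (background 6.28%) and 10 lower (background 17%). The higher members were TICAM1, IRAK1, IRAK2, TRAF2, NFKB2, RELB, NFKBIA, NFKBIB, TNFAIP3, TNIP1, CXCL1, CXCL2 and IL32. The lower members were TLR1, IRAK4, TRAF6, MAP3K7, TAB3, CHUK, IL1RAP, IL6ST, JAK2 and CXCL10. DESeq2 without the block called 20 members (background 23.5%), 9 higher (background 6.74%) and 11 lower (background 16.8%), of which 16 were also called with the block and 4, TLR2, TLR3, TAB2 and RELA, were not. The limma test on log2(FPKM + 1) called 0 members (background 1.68%), and 24 had an unadjusted p under 0.05, against 28.9% of all features.

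The median log2 fold change of the 50 members was 0.28, beside 0.025 over all features, and with the block 0.29 beside 0.040. Without the shNXN library of day 7 the members' median was 0.017. The shNXN libraries lay entirely above the shControl libraries in 18 members (background 19%) and entirely below in 13 members (background 21.5%), so 31 of 50 members did not overlap, against 40.6% of all features. Within the single days, the difference in log2(CPM + 1) had the same sign on all 3 days in 41 of 50 members (82%), against 68.4% of all features. A difference of at least 1 on this scale was seen in 14 members (28%) on day 7, 12 (24%) on day 9 and 6 (12%) on day 11, against 16.3%, 18.3% and 8.29% of all features. Of these, 13, 10 and 4 were lower in shNXN. These counts depended on the libraries used. Leaving out 1 library in the fit without the block gave between 0 and 13 members called. Without the shNXN library of day 11, 13 were called (3 higher and 10 lower), or 26%, against 25.8% of all features. Without the shControl library of day 9, 1 was called (background 1.73%), and without any other library, 0. In the paired fit, 0 members were called without the libraries of day 7 (19 at an unadjusted p under 0.05, beside 2968 of 14133 features). Without those of day 9, 8 members were called (16%, background 12.7%), and without those of day 11, 31 (62%, background 37%).

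**Figure D1:**
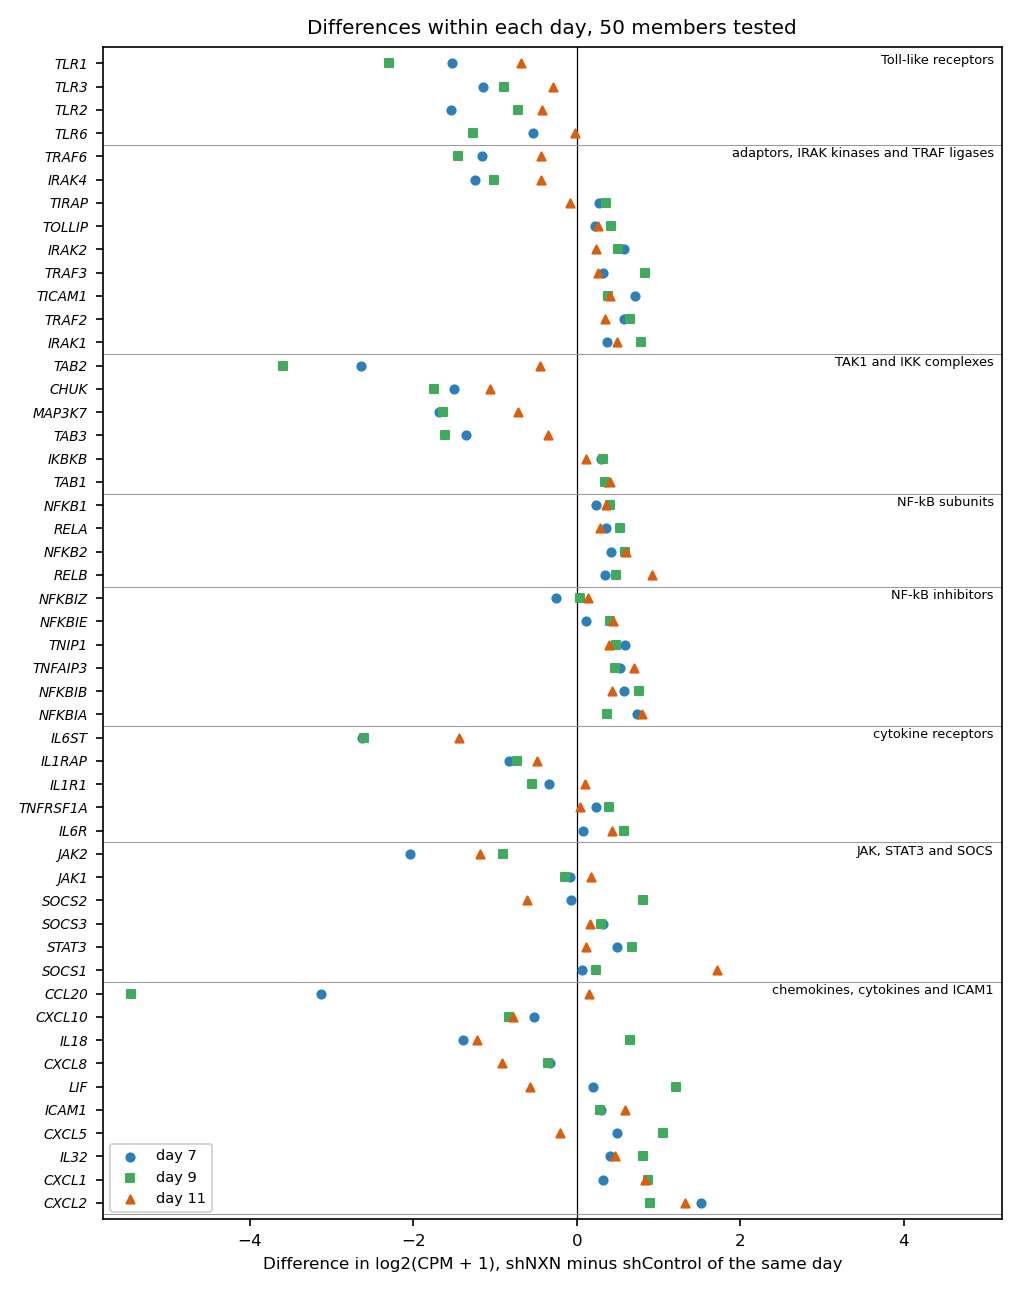
Difference in log2(CPM + 1) between the shNXN and the shControl library of the same day for the 50 members tested, grouped by role; circles stand for day 7, squares for day 9 and triangles for day 11, with 1 library per group and day. The 4 Toll-like receptors lie left of 0 and the 4 NF-kB subunits right of 0 on every day, and CCL20 spans from -5.45 on day 9 to 0.15 on day 11.

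The sign of a member's difference went with the base composition of its transcript, as it did across the whole data set. Spearman's rho between the log2 fold change and the GC content of the longest annotated transcript was 0.79 over the 50 members and 0.79 over the 12740 features with a value, a description across genes that share the same 6 libraries. Of the 24 members below the median GC content of all features (48.37%), 21 had a log2 fold change below 0, with a median of -1.05, beside -0.59 over all features below that median. Of the 26 members above it, 25 had a log2 fold change above 0, with a median of 0.43, beside 0.31 over all such features. The 11 called members above the median were all higher in the paired fit, which called 6.28% of all features higher and 17% lower. Of the 12 called members below it, 10 were lower and 2, CXCL1 and CXCL2, were higher. The shares of all features called on each side of the median were not counted, so this split describes the members only. With the trend on GC content taken out of every library, 1 member was called in the paired fit (background 0.924%), which was CXCL2, and 0 without the block (background 0.0355%), where 3 had an unadjusted p under 0.05, against 17.1% of all features. The corrected median of the members was 0.065, beside -0.00040 over all features, and 0.11 beside 0.0095 with the block. The correction takes out whatever part of a group difference goes along with GC content, so a change of the pathway and a trend with base composition cannot be told apart for the members that lost their call.

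**Figure D2:**
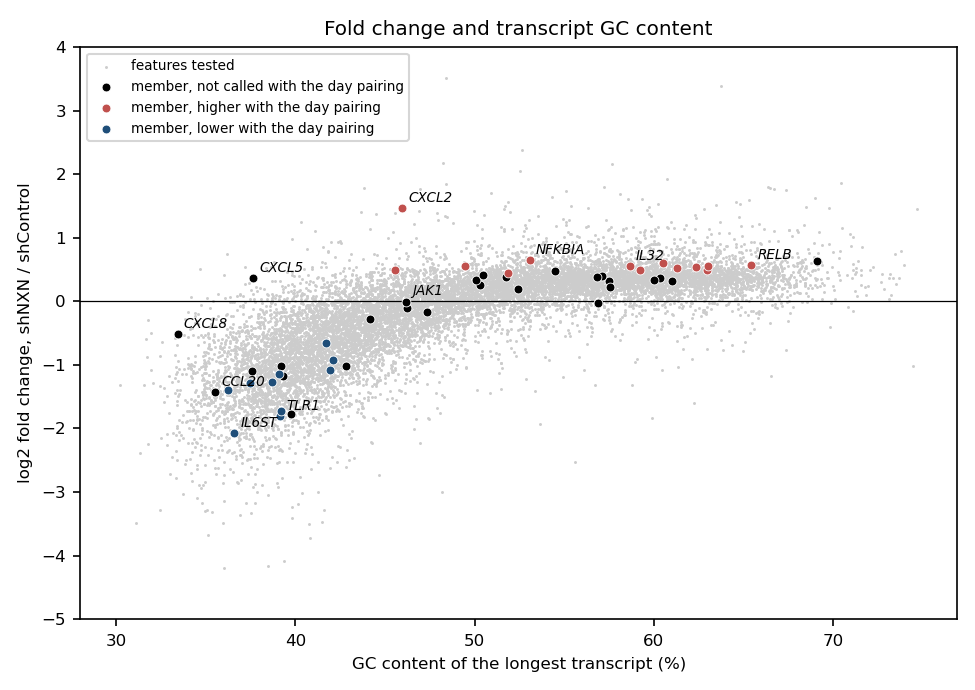
Log2 fold change (shNXN over shControl, edgeR without the block) against the GC content of the longest annotated transcript in percent; grey points are the features tested with a GC value, and larger points the 50 members, coloured by their call with the day pairing. The called members lie low at the left and high at the right, CXCL1 and CXCL2 excepted, and 6 grey features fall outside the axis from -5 to 4.

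The Toll-like receptors were weakly expressed, and TLR1 fell in the paired fit. Of the 6 receptors listed, TLR4, the receptor of lipopolysaccharide, had 0 counts in every library, where a count of 0 allows up to 3 counts, or 0.184 to 0.195 CPM, as counting error only. TLR5, the flagellin receptor, had 2 to 12 counts per library, and neither was tested. The lipopeptide receptor subunit TLR1 had 135, 181 and 104 counts in shControl and 40, 24 and 56 counts in shNXN on days 7, 9 and 11. Its shNXN libraries all lay below its shControl libraries, at -1.81 on the log2 scale (standard error 0.39; edgeR adjusted p = 0.0532, the smallest of the members, and 0.0396 with the replicate block). TLR2, its partner in recognizing lipopeptides, had 167, 101 and 75 counts in shControl and 51, 55 and 49 in shNXN, without overlap. TLR3, the receptor of double-stranded RNA, had 66, 60.1 and 45.7 counts in shControl and 22.7, 25 and 33 in shNXN, again without overlap. TLR6, with 20 to 70.9 counts, was also lower in every shNXN library. The log2 fold changes of TLR2, TLR3 and TLR6 lay between -1.17 and -1.02, and with all libraries edgeR called none of the 3 with or without the block (adjusted p = 0.0573 to 0.142 with it), whereas DESeq2 called TLR2 and TLR3 without it. After GC correction the log2 fold changes of the 4 receptors ranged from -0.88 to 0.066. TLR1 and TLR6 share 8.5% of the 50-base stretches of the longest TLR1 transcript, and both had estimated counts that were not whole, so reads may have been divided between them.

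Adaptors, IRAK kinases and TRAF ligases split into 7 members above and 2 below 0, and 8 of the 9 did not overlap, against 40.6% of all features. IRAK1, the kinase recruited to activated receptors, was the most abundant of the 9 at 62.6, 65.1 and 70.6 FPKM in shControl and 87.5, 126 and 94.7 FPKM in shNXN. In CPM it stood at 186, 182 and 194 in shControl and 239.8, 315 and 272 in shNXN on days 7, 9 and 11. It was higher on each day, by 0.55 on the log2 scale with the replicate block (standard error 0.12, edgeR adjusted p = 0.0349; 0.0637 without it). TICAM1, the adaptor of TLR3 also known as TRIF, IRAK2 and TRAF2, a ligase of tumor necrosis factor receptors, were called higher in the paired fit with log2 fold changes of 0.51, 0.44 and 0.53. TOLLIP, an inhibitor of IRAK activity, was higher in CPM in every shNXN library at 156, 183 and 142, against 134, 136 and 118 in shControl, but was not called (edgeR adjusted p = 0.178, and 0.0767 with the block). TRAF6, the ligase that connects IRAK kinases to TAK1, had 246, 244 and 210 counts in shControl and 110, 79 and 144 counts in shNXN. Its groups did not overlap, and it fell by 1.12 on the log2 scale in the paired fit (edgeR adjusted p = 0.0423), and IRAK4, the kinase that activates IRAK1, also fell (adjusted p = 0.0429), from 184, 185 and 226 counts in shControl to 74, 84.2 and 155 counts in shNXN. With the block and GC correction, TRAF6 stood at -0.43 and IRAK1 at 0.16, and none of the 9 was called.

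All 6 measured members of the TAK1 and IKK complexes showed no overlap between the groups, against 40.6% of all features, 4 being lower and 2 higher in shNXN. MAP3K7, which encodes TAK1, had 94.5, 92 and 107 CPM in shControl and 28.6, 28.8 and 64.7 CPM in shNXN on days 7, 9 and 11. CHUK, which encodes the kinase IKKα, had 43.6, 44.9 and 66.2 CPM in shControl and 14.7, 12.7 and 31.3 CPM in shNXN. Both were lowest on days 7 and 9 of shNXN and higher, though still below every shControl library, on day 11. In the paired fit MAP3K7 fell by 1.38 (edgeR adjusted p = 0.0226) and CHUK by 1.49 on the log2 scale (standard error 0.19, adjusted p = 0.0154). The TAK1-binding proteins TAB2 and TAB3 differed in their spread. TAB3 had 194, 178 and 107 CPM in shControl and 75.5, 57.2 and 83.1 CPM in shNXN, and fell by 1.12 in the paired fit (edgeR adjusted p = 0.0396; 0.0551 without the block). TAB2 had 74.7, 93.8 and 72.5 CPM in shControl and 11.1, 6.86 and 52.6 CPM in shNXN, with differences of -2.64, -3.59 and -0.46 in log2(CPM + 1) on days 7, 9 and 11, and with all libraries was called with DESeq2 but not with edgeR (adjusted p = 0.0592 with the block). IKBKB, which encodes the kinase IKKβ, was the most abundant of the 6 at 21.9, 24.7 and 21.8 FPKM in shControl and 34.4, 33.1 and 31.6 FPKM in shNXN. Together with TAB1 it lay higher in every shNXN library, at log2 fold changes of 0.25 and 0.37 that were not called. With the block and GC correction CHUK stood at -0.15 and MAP3K7 at -0.29. IKBKG, the regulatory IKK subunit, was not matched to a feature.

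The 4 NF-kB subunits measured as members, NFKB1, NFKB2, RELA and RELB, were higher in every shNXN library than in any shControl library, against 19% of all features. RELA, the p65 subunit, was the most abundant, at 42.2, 44.5 and 48 FPKM in shControl and 71.1, 73 and 53.8 FPKM in shNXN. Its CPM was 97.8, 91.8 and 99.4 in shControl and 126, 133 and 122 in shNXN, a log2 fold change of 0.40 (standard error 0.12; edgeR adjusted p = 0.0829, and 0.0517 with the replicate block). NFKB2, the precursor of p52, had 104, 75.2 and 88.2 CPM in shControl and 139, 113 and 135 CPM in shNXN and was called in the paired fit (log2 fold change 0.54, standard error 0.10, edgeR adjusted p = 0.0288). RELB, the partner of p52, was also called, at 0.59 (adjusted p = 0.0476), and NFKB1, the precursor of p50, was not, at 0.34 (adjusted p = 0.0649). The subunits kept a positive sign after GC correction, with log2 fold changes of 0.059 to 0.19 in the paired fit and no call.

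Of the 6 NF-kB inhibitors, 4 were called higher with the block, against 6.28% of all features: NFKBIA, NFKBIB, TNFAIP3 and TNIP1. NFKBIA, which encodes IkBα and is itself switched on by NF-kB, had 238, 162 and 96.5 CPM in shControl and 398, 209.9 and 169 CPM in shNXN on days 7, 9 and 11. Both groups declined from day 7 to day 11, so the groups overlapped, yet shNXN was higher on each day, by 0.74, 0.37 and 0.80 in log2(CPM + 1). The log2 fold change was 0.64 with the block (standard error 0.12, edgeR adjusted p = 0.0287), whereas the standard error without it was 0.41 (adjusted p = 0.294). TNFAIP3, which encodes the deubiquitinase A20, had the same course, with 171, 70.9 and 55 CPM in shControl and 246, 98.6 and 89.7 CPM in shNXN. Its log2 fold change was 0.57 with the block (standard error 0.11, edgeR adjusted p = 0.0267) and 0.46 with the block and GC correction (adjusted p = 0.0872). NFKBIB, which encodes IkBβ, did not vary in this way between days, at 53.1, 48.1 and 50.9 CPM in shControl and 79.7, 82.3 and 68.8 CPM in shNXN without overlap. TNIP1, an A20-binding protein, had 125, 113 and 112 CPM in shControl and 188, 157 and 147 CPM in shNXN, also without overlap. In the paired fit NFKBIB was higher by 0.60 and TNIP1 by 0.49 on the log2 scale (edgeR adjusted p = 0.0319 for both). With the block and GC correction, NFKBIA stood at 0.37, NFKBIB at 0.23 and TNIP1 at 0.13, and none of these was called (edgeR adjusted p = 0.174, 0.316 and 0.478). NFKBIZ, which encodes the nuclear IkB family member IkBζ, declined over days in both groups and was not called, with 342, 118 and 97.6 CPM in shControl, 287, 121 and 108 CPM in shNXN and a log2 fold change of -0.025 in the paired fit (edgeR adjusted p = 0.879).

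**Figure D3:**
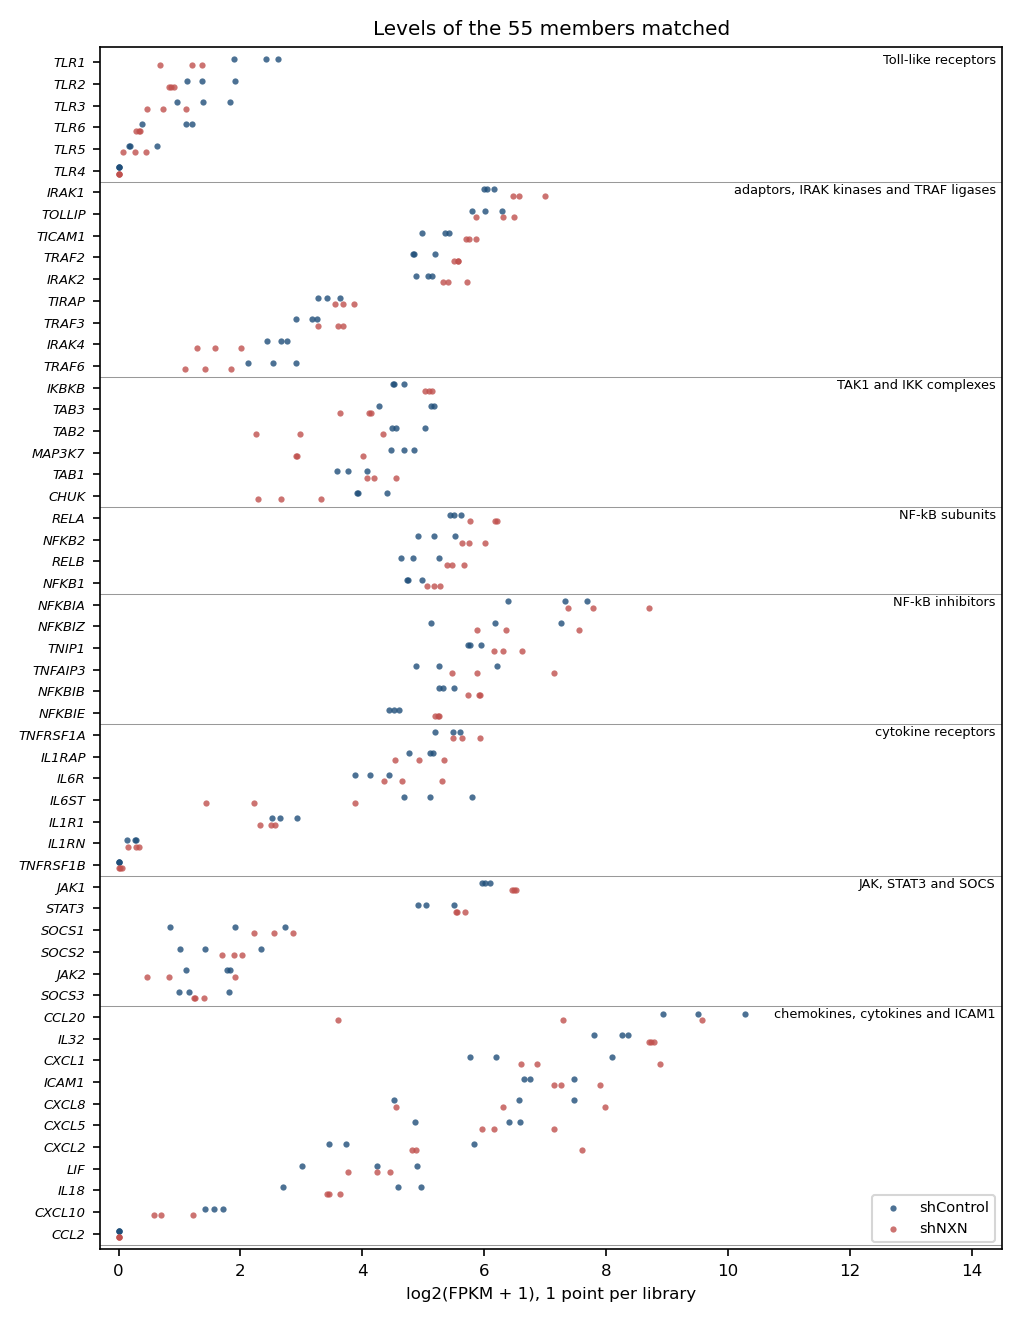
Levels of the 55 members matched, as log2(FPKM + 1) with 1 point per library, shControl in blue and shNXN in red, grouped by role and ordered by mean FPKM within a role. The Toll-like receptors lie at the left, below 6 FPKM in every library, and CCL20, IL32, NFKBIA, CXCL1, ICAM1 and CXCL8 are the 6 members with a mean of 100 FPKM or more.

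Among the cytokine receptors the largest difference was in IL6ST, which encodes gp130, the shared signaling subunit of the interleukin 6 family, on chromosome 5 (55935095 to 55994993, minus strand, GRCh38). It had 149.9, 94.7 and 157 CPM in shControl and 23.4, 14.7 and 57.2 CPM in shNXN on days 7, 9 and 11, without overlap. The log2 fold change was -2.08 (standard error 0.49 and edgeR adjusted p = 0.0607) and -2.27 with the replicate block (standard error 0.29, adjusted p = 0.0156). With the block and GC correction it was -0.96 (edgeR adjusted p = 0.0776), and the transcript's GC content was 36.6%. IL6R, the ligand-binding subunit for interleukin 6, was not called, at 75, 82.1 and 63.1 CPM in shControl and 78.9, 124 and 85.2 CPM in shNXN, which overlapped. IL1RAP, the accessory chain of the interleukin 1 receptor, had 85.8, 55.3 and 114 CPM in shControl and 48, 32.9 and 81 CPM in shNXN, lower on each day although the groups overlapped. It was called in the paired fit at -0.69 (standard error 0.12, edgeR adjusted p = 0.0252), stood at 0.028 with the block and GC correction, and differed by -0.077 on the log2(FPKM + 1) scale. TNFRSF1A, the main receptor of tumor necrosis factor, was the most abundant receptor member at 35.6 to 60.0 FPKM, and was not called, with a log2 fold change of 0.22. TNFRSF1B had 0 to 2 counts and IL1RN, the interleukin 1 receptor antagonist, 1 to 6 counts per library, and both were not tested.

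Among the JAK, STAT3 and SOCS genes, JAK2 was called and JAK1 and STAT3 were not. JAK2 had 135, 72 and 147 counts in shControl and 23, 31 and 53 counts in shNXN on days 7, 9 and 11, without overlap. Its log2 fold change was -1.73 (standard error 0.44, edgeR adjusted p = 0.0656), and -1.74 with the replicate block (adjusted p = 0.0301). With the block and GC correction JAK2 stood at -0.72 and was not called (edgeR adjusted p = 0.271). In FPKM the groups overlapped, at 2.45, 1.15 and 2.55 in shControl and 2.78, 0.39 and 0.77 in shNXN, and JAK2 differed by -0.50 on the log2(FPKM + 1) scale (limma adjusted p = 0.393). JAK1, the more abundant kinase, had 246, 263 and 276 CPM in shControl and 231, 238 and 313 CPM in shNXN, a difference of -0.0065 on the log2 scale (standard error 0.15) that turned positive with DESeq2 size factors (0.014). In FPKM, however, JAK1 lay at 61.6, 63.4 and 67.1 in shControl and 86.7, 90.5 and 88.9 in shNXN, without overlap, and differed by 0.46 on the log2(FPKM + 1) scale, on which the median of all features was 0.13 (limma adjusted p = 0.0985). STAT3 had 114, 107 and 159 CPM in shControl and 161, 172 and 171 CPM in shNXN. Its shNXN libraries all lay above its shControl libraries, the shControl library of day 11 closely, and its log2 fold change of 0.41 was not called (standard error 0.17; edgeR adjusted p = 0.153, and 0.0748 with the block). The feedback inhibitors SOCS1, SOCS2 and SOCS3 had 12 to 95 counts per library and were not called. SOCS1 had 12 counts in the shControl library of day 11 and 44 to 94 in the other 5 libraries, which gave differences of 0.061, 0.24 and 1.72 in log2(CPM + 1) on days 7, 9 and 11.

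The chemokines, cytokines and ICAM1 held the most abundant members and the widest spread. CXCL1 (73869393 to 73871242, plus strand), CXCL2 (74097035 to 74099293, minus strand) and CXCL8 (73740506 to 73743716, plus strand), all on chromosome 4 in GRCh38, encode chemokines that attract neutrophils. CXCL2 had 44.1, 8.37 and 7.42 CPM in shControl and 128, 16.5 and 20.1 CPM in shNXN on days 7, 9 and 11. It was higher in shNXN on each day, by 1.52, 0.90 and 1.33 in log2(CPM + 1), while the groups overlapped because day 7 of shControl exceeded days 9 and 11 of shNXN. The log2 fold change was 1.33 with the replicate block (standard error 0.17, edgeR adjusted p = 0.0154), 1.51 with the block and GC correction (adjusted p = 0.0377) and 1.46 without either (standard error 0.99, adjusted p = 0.323). CXCL1 had 202, 30.3 and 48.3 CPM in shControl and 252, 56.2 and 86.7 CPM in shNXN, and a paired log2 fold change of 0.68 (edgeR adjusted p = 0.0358; 0.0653 after GC correction). Without the shNXN library of day 7, the unpaired log2 fold changes of CXCL1 and CXCL2 were -0.38 and -0.12. CXCL1 and CXCL2 share 5.73% of the 50-base stretches of the longest CXCL1 transcript. The related gene CXCL3 shares 4.62% of those of the longest CXCL2 transcript and 0.573% of those of CXCL1. Counts were not whole for CXCL1 on day 11 of shControl and day 9 of shNXN. For CXCL2 they were not whole on day 7 of shControl and days 7 and 11 of shNXN. In each of these libraries the count of CXCL3 was not whole either, so reads may have been divided between CXCL3 and each of them.

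CXCL8, which encodes interleukin 8, was the one of the 3 with lower counts in shNXN. It had 193, 16.7 and 112 CPM in shControl and 153, 12.9 and 59.3 CPM in shNXN, lower on each day, with a paired log2 fold change of -0.55 that was not called (standard error 0.16, edgeR adjusted p = 0.0575). With the block and GC correction the value was 1.06 (edgeR adjusted p = 0.0686), and its transcript, at 33.4% GC, had the lowest GC content of the members. CCL20, a chemokine for lymphocytes and dendritic cells on chromosome 2 (227805739 to 227817564, plus strand, GRCh38), was the most abundant member in FPKM. It had 691, 276 and 372 CPM in shControl and 78.2, 5.33 and 414 CPM in shNXN, so that 2 of the 3 shNXN libraries were far below shControl and the library of day 11 was within its range. Its highest shNXN value was 77.7 times its lowest, against 2.5 times in shControl, and it was not called (log2 fold change -2.87, standard error 1.23, edgeR adjusted p = 0.128 with the block). IL32, a cytokine of epithelial cells and lymphocytes, was even across days, at 202, 148 and 208 CPM in shControl and 268, 259 and 288 CPM in shNXN without overlap. It was called in the paired fit at 0.56 (standard error 0.12, edgeR adjusted p = 0.0339). The interferon-induced chemokine CXCL10 had 32, 25 and 28 counts in shControl and 19, 7 and 9 counts in shNXN, without overlap, and was called lower at -1.36 (edgeR adjusted p = 0.0496 with the block). DESeq2 did not call it (adjusted p = 0.0807). With the block and GC correction, CXCL10 stood at -0.14 and IL32 at 0.21, and neither was called (edgeR adjusted p = 0.871 and 0.342). ICAM1, the adhesion molecule for leukocytes, was higher in shNXN on each day by 0.28 to 0.58 in log2(CPM + 1) but was not called (edgeR adjusted p = 0.0556 with the block). CCL2, the monocyte chemokine, had 0 counts in every library.

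The members with the smallest p for the day were CXCL8, CXCL2, CXCL1, TNFAIP3 and NFKBIZ. The model gives both groups the same course over the days, so the likeness of the groups in the ratios below is part of how these members were chosen. CXCL8 was 11.6 times higher on day 7 than on day 9 in shControl and 11.9 times higher in shNXN, in CPM. For CXCL1 these ratios were 6.67 and 4.48, and for CXCL2 5.27 and 7.78. TNFAIP3 was 2.41 and 2.5 times higher on day 7 than on day 9 in shControl and shNXN, and NFKBIZ 2.91 and 2.38 times. On day 11 CXCL8 was above its level of day 9 in both groups, whereas TNFAIP3, NFKBIA and NFKBIZ were below theirs. In a model with group and day, 0 of 50 members and 0% of all features had an adjusted p under 0.05 for the day in edgeR's quasi-likelihood test, and 12 members (24%) had an unadjusted p under 0.05, against 21.4% of all features. CXCL8, CXCL2, CXCL1, TNFAIP3 and NFKBIZ ranked 4, 5, 10, 14 and 18 by that p among the 14071 features, with adjusted p values between 0.0767 and 0.0867. After GC correction 5 of 50 members were called for the day, against 0.178% of all features: CXCL2 (edgeR adjusted p = 0.0317), and CXCL1, CXCL8, TNFAIP3 and NFKBIZ (adjusted p = 0.0474 for each). The number of day calls before GC correction changed with the libraries used, and the GC-corrected fit was not repeated without a library. Without the shControl library of day 11, 15 members were called (background 11.1%). Without the shNXN library of day 11 it was 11 members (background 3.8%). Without the shControl library of day 9 it was 5 members (background 0.175%), and without any other library, 0. Each of these fits left 1 library on the day concerned.

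**Figure D4:**
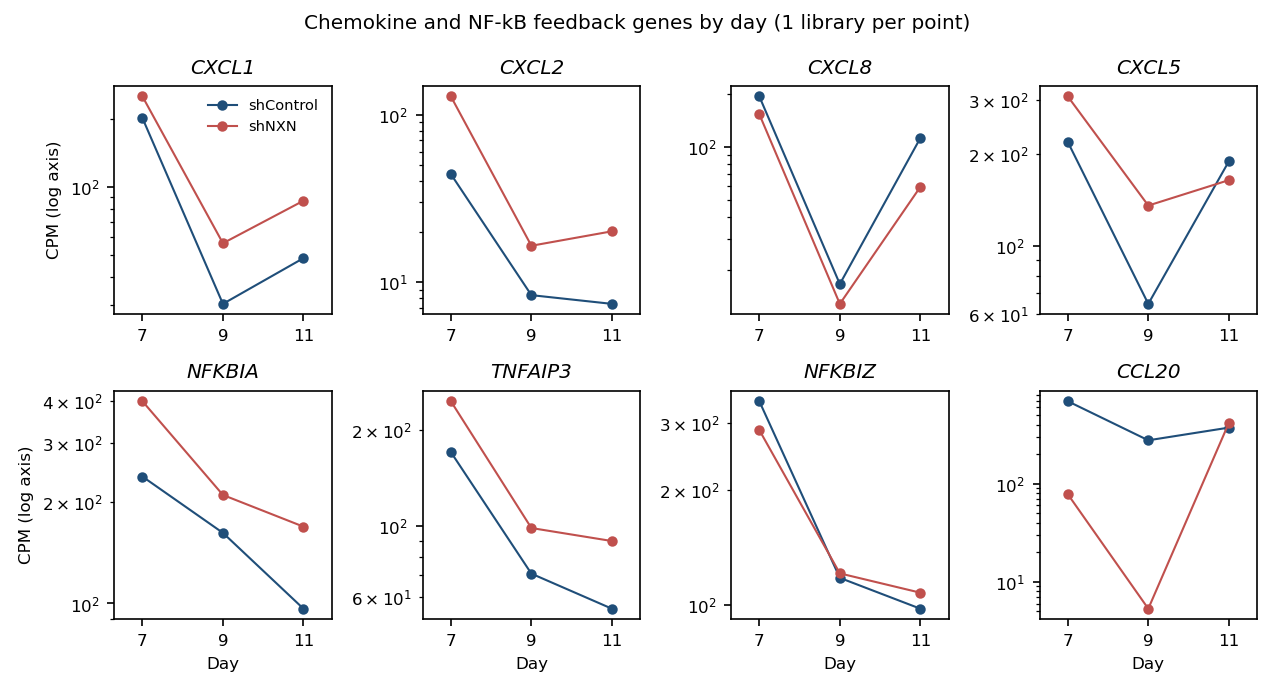
CPM on a log axis against the day for 8 members, shControl in blue and shNXN in red, with 1 library per point and lines joining the libraries of a group. CXCL1, CXCL2, NFKBIA and TNFAIP3 are lower after day 7 in both groups with shNXN above shControl on each day, CXCL8 dips on day 9 with shNXN below, and CCL20 is at 5.33 CPM on day 9 in shNXN and 276 CPM in shControl.

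The members called for the day, with NFKBIA, are known targets of NF-kB, and the letters of the NF-kB binding site occur shortly before their start sites. The 100 bases shown lie upstream of the RefSeq gene start (GRCh38.p14), are written 5′ to 3′ along the gene's strand and show in capitals the matches to GGANNTTCC on either strand, a spelling chosen after several had been tried on these genes. The windows lie at chr4:73869263-73869362 (plus strand, positions -130 to -31) for CXCL1, chr4:74099264-74099363 (minus strand, positions -168 to -69) for CXCL2, chr4:73740406-73740505 (plus strand, positions -163 to -64) for CXCL8, chr6:137867101-137867200 (plus strand, positions -158 to -59) for TNFAIP3, chr14:35404780-35404879 (minus strand, positions -130 to -31) for NFKBIA and chr3:101827740-101827839 (plus strand, positions -250 to -151) for NFKBIZ. Positions count back from the RefSeq start, and in the longer GENCODE 29 gene models of CXCL2 and TNFAIP3 the last 30 and 13 of the bases shown lie within the gene.
CXCL1: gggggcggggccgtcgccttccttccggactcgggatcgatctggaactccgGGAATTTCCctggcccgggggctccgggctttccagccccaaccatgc
CXCL2: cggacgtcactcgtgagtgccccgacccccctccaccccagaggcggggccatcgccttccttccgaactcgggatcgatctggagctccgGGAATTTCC
CXCL8: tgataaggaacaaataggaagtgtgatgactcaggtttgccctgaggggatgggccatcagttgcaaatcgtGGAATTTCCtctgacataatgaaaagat
TNFAIP3: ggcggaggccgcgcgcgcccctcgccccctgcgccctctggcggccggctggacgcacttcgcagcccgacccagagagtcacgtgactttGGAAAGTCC
NFKBIA: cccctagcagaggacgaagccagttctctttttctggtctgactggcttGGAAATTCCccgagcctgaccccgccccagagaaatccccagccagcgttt
NFKBIZ: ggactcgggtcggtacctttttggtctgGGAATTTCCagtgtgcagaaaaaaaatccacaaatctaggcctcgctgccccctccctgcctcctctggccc

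The same 9 letters, GGAATTTCC, begin at position -78 in CXCL1, -77 in CXCL2, -91 in CXCL8 and -222 in NFKBIZ, and they read on the opposite strand at -81 in NFKBIA. In TNFAIP3 the opposite strand reads GGACTTTCC at position -67. In the 250 bases before the start, a match occurred in 4.71% of 27305 genes with a RefSeq window and in 18 of 47 listed members (38.3%). Of the members with a window that were called higher in the paired fit, 9 of 12 held it: TICAM1, NFKB2, NFKBIA, NFKBIB, TNFAIP3, TNIP1, CXCL1, CXCL2 and IL32. Of those called lower, 2 of 9 did, JAK2 and CXCL10, and of the members not called, 7 of 25. The 5 members called for the day after GC correction all held it, against 13 of the other 41 members with a window and a feature. In the paired fit with GC correction, the median log2 fold change of the 18 tested members with a match was 0.17, and that of the 24 with a window and no match was 0.018. The list was drawn up from genes known to act in or respond to this pathway, and a match describes letters only. The spelling was chosen after others had been tried on these genes, so their shares were partly set by that choice.

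**Figure D5:**
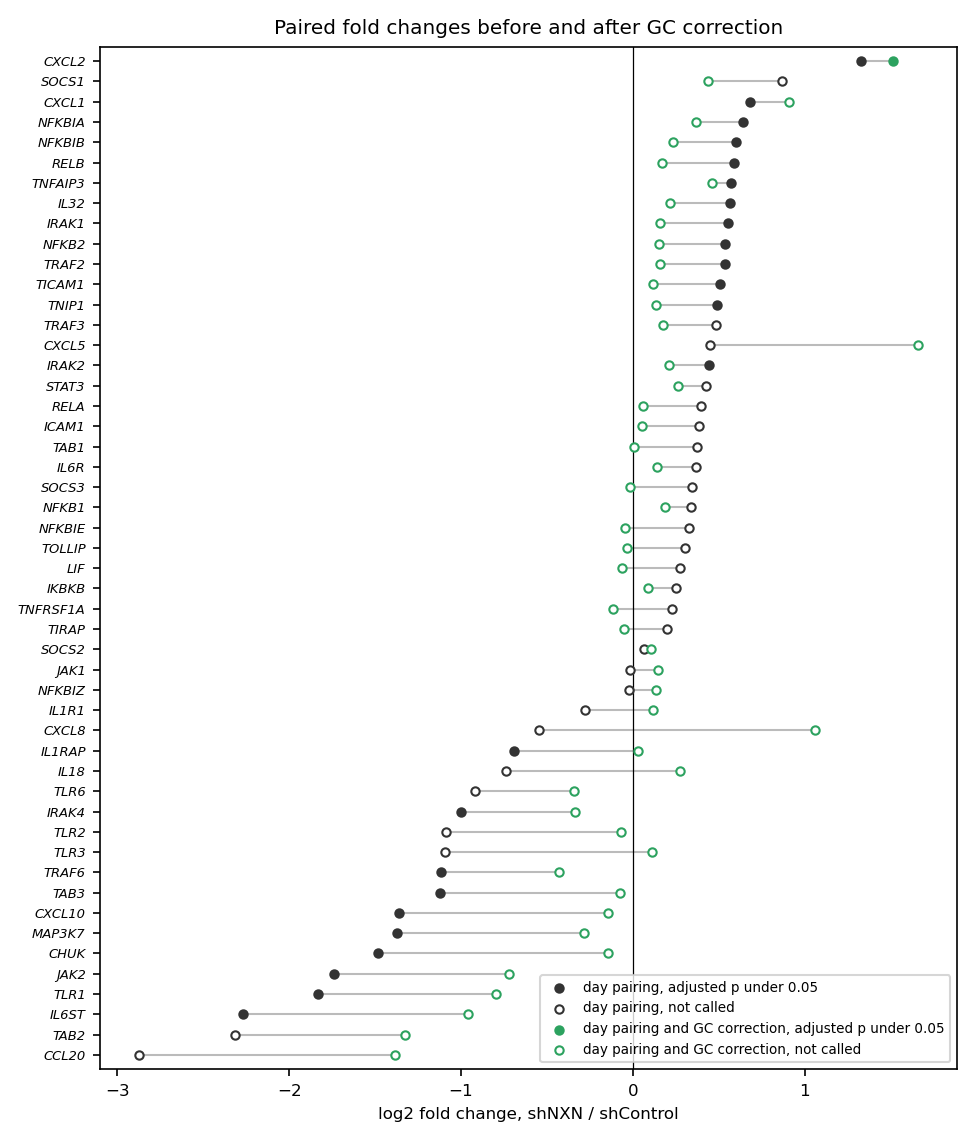
Log2 fold change (shNXN over shControl) of the 50 members with the day pairing in black and with the day pairing and GC correction in green, joined by a line; filled points have an adjusted p under 0.05. Most members move towards 0 after the correction, CXCL5 and CXCL8 move to 1.66 and 1.06, and CXCL2 at 1.51 is the 1 filled green point.

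Other genes of these pathways, 66 listed besides the members, were matched to 63 features, of which 52 were tested. Of the 52, 3 were called without the block (background 3.39%), all lower: REL, the c-Rel subunit of NF-kB, BIRC2, which encodes the ubiquitin ligase cIAP1, and SOCS5. REL had 82, 50.9 and 55.6 CPM in shControl and 15.3, 12.1 and 22.9 CPM in shNXN on days 7, 9 and 11, in contrast to the 4 subunits above, which were higher. Its log2 fold change was -1.91 (standard error 0.30, edgeR adjusted p = 0.0452). Under the pairing by day and the GC correction it was -0.83 (adjusted p = 0.0764). The log2 fold changes of BIRC2 and SOCS5 were -2.01 and -1.63 (edgeR adjusted p = 0.0456 and 0.0452). SOCS4, at -1.60, and TNIP2, another A20-binding protein, at 0.64, were called by edgeR with the block (adjusted p = 0.0153 and 0.0238). Without it, with TMM factors and filterByExpr, neither was called (edgeR adjusted p = 0.0530 and 0.0538). Without the block, both were called with RLE factors or library size only and with DESeq2. SOCS4 was also called by edgeR without the filter (adjusted p = 0.0407) and with at least 10 counts in every library (0.0489). After the block and GC correction, SOCS4 stood at -0.11 and TNIP2 at 0.26 (edgeR adjusted p = 0.805 and 0.249). BIRC2 and SOCS5 stood at -0.87 and -0.44 in that fit (edgeR adjusted p = 0.0562 and 0.268), and none of the 4 was called. With the block, 18 of the 52 were called, against 23.3% of all features, with 9 higher (background 6.28%) and 9 lower (background 17%). With the block and GC correction 1 was called (background 0.924%), the mitochondrial superoxide dismutase gene SOD2, an NF-kB target named after its value was seen. Its log2 fold change was 0.96 in that fit (edgeR adjusted p = 0.0414). Before the GC correction SOD2 overlapped between the groups and was not called, at 0.24 with the block (edgeR adjusted p = 0.221) and 0.22 without it (0.615). CXCL3, a related chemokine gene chosen after its values were seen, followed the course of CXCL1 and CXCL2, with 78.9, 14.8 and 19.9 CPM in shControl and 119, 23 and 31.8 CPM in shNXN (edgeR adjusted p = 0.0267 with the block). Its counts were not whole except on day 9 of shControl, and reads may have been divided between CXCL3 and CXCL1 or CXCL2. The 3 genes may therefore not be separate observations. Among the ligands, IL6 had 0 to 2 counts, IL1B 4 to 19 and TNF 1 to 38 counts per library, whereas the members LIF and IL18 had 161 to 1151 and 78 to 447 counts. For TNF the highest counts were those of day 7, at 21 in shControl and 38 in shNXN.

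The deposited FPKM values gave the other sign for 6 of the 50 members: NFKBIZ, JAK1, SOCS2, SOCS3, CXCL8 and LIF. The FPKM values of a library summed to 631135 to 678216 in shControl and 688017 to 774345 in shNXN, and the median of all features was 0.13 on the log2(FPKM + 1) scale and 0.025 in counts. On the FPKM scale the shNXN libraries lay entirely above shControl in 17 members (background 20.4%) and entirely below in 11 (background 15.2%). NFKBIZ had 153, 71.2 and 34.1 FPKM in shControl and 188, 81 and 58.1 FPKM in shNXN, higher on each day, and CXCL8 had 176, 21.9 and 93.9 FPKM in shControl and 253, 22.4 and 78.7 FPKM in shNXN.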

How the data were processed

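RNA of Hep-3B cells was sequenced from 3 shControl and 3 shNXN libraries, 1 per group on days 7, 9 and 11, after library preparation with a SMARTER mRNA-seq kit. The authors deposited estimated counts per feature, which were not whole for 15.1% to 18.8% of features in a library, and FPKM values, which also depend on the transcript lengths used and sum to different totals per library. The aligner and counter are not given in the sources used here. The submitters' processing notes name GRCm38 and mm10, mouse builds, whereas the features carry 20314 human Ensembl identifiers, of which 816 are not in GENCODE 29, and 3092 assembled loci. Gene coordinates and transcripts are those of GENCODE 29 (GRCh38). There were 0 columns without a sample.

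Rounded counts went into edgeR 4.0.16 under R 4.3.3 (TMM factors, filterByExpr, quasi-likelihood test), and features with a Benjamini-Hochberg adjusted p under 0.05 over all 14071 features tested were called. CPM values used the same factors, and standard errors are the size of the log2 fold change over the square root of F. Same-day libraries of the 2 groups deviated together (correlations of 0.391, 0.351 and 0.495 on days 7, 9 and 11, against -0.416 to 0.169 for other days), and the labels give the days, so the pairing by day was fitted as a replicate block. The day itself was tested with 2 terms in that model. DESeq2 1.42.0, limma 3.58.1 on log2(FPKM + 1) and log2(FPKM + 0.1), other factors and filters, and leaving out each library were alternatives. For the GC correction, the log2 deviations of each library were regressed on a natural spline (5 degrees of freedom) of the GC content of the longest transcript, known for 90.54% of features tested, and the curve became an offset. The fits were also run on simulated data that held no trend on GC content, so these runs could not check the GC correction. Replicates within a group all differed by more than sampling noise. Library totals were 15349382 to 16332589, and intervals from depth alone would cover counting error only.

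In each of 8 role groups, the 2 members with the highest mean FPKM and the 2 with the smallest p were named, with the 10 smallest p of the paired fit and the 5 smallest of the wider list, and the choice of other members to name followed their values. The members and lists were chosen with earlier results of these data known. Promoter windows came from RefSeq (GRCh38.p14), with a window for 47 listed members.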

Additional observations from a re-analysis of the deposited data

Results flagged for a closer look

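In 9 members the difference within a day, as log2(CPM + 1) of shNXN minus shControl, had the other sign on 1 of the 3 days. The difference between the days was not tested, since each group has 1 library per day. CCL20 stood at 0.15 on day 11, against -3.13 and -5.45 on days 7 and 9, and SOCS2 at 0.80 on day 9, against -0.076 and -0.61 on days 7 and 11. IL18 was at 0.65 on day 9, against -1.39 and -1.23 on days 7 and 11, and LIF at -0.58 on day 11, against 0.19 and 1.22. CXCL5 was at -0.20 on day 11, against 0.49 and 1.05. Smaller changes of sign were seen in TIRAP (-0.079 on day 11), NFKBIZ (-0.25 on day 7), IL1R1 (0.10 on day 11) and JAK1 (0.18 on day 11).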

How the results depend on the processing

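The number of members called between the groups changed with the fit, the GC correction and the libraries included. It was 20 with DESeq2 (3311 features), 23 with the replicate block (3272 features), 3 each with RLE factors (826), library size only (929) and no filter (818), 1 with at least 10 counts in every library, 0 with limma at a pseudocount of 1 (236) or 0.1 (20) and with GC correction (5), and 1 with the block and GC correction (130). Without 1 library it ranged from 0 to 13 members and 0 to 3706 features. In the paired fit without day 7 it was 0 of 0 features, without day 9 it was 8 of 1794, and without day 11 it was 31 of 5250, alternatives added after seeing the data. Of the wider list, 13 were called with DESeq2, 5 each with RLE factors and library size only, 18 with the block, 1 with the block and GC correction, 0 with limma at 0.1 or with GC correction, 0, 10 and 25 in the paired fit without day 7, 9 or 11, and 0 to 14 without 1 library. For the day, GC correction gave 5 members of 25 features, and leaving out 1 library 0 to 15 members of 0 to 1595 features. The median of the members was 0.43 with limma at 0.1, 0.065 with GC correction and 0.11 with the block and GC correction, and 0.017 to 0.33 without 1 library. NXN stood at -1.90 to -1.67 without 1 library and lost its call in 4 of these 6 fits (adjusted p = 0.0633 to 0.225), with limma at 0.1 (-1.75, adjusted p = 0.0522), and in the paired fit without day 7 (-1.69). The cause was not tested.

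Of 55 genes followed, 37 kept the sign of their log2 fold change in every alternative and 18 did not. After GC correction without and with the block the sign was reversed for TLR3 0.066 and 0.11, TOLLIP -0.032 and -0.033, NFKBIZ 0.064 and 0.13, TNFRSF1A -0.12 and -0.11, IL1RAP 0.0045 and 0.028, JAK1 0.15 and 0.15, TIRAP -0.059 and -0.054, NFKBIE -0.037 and -0.045, IL1R1 0.11 and 0.12, SOCS3 -0.024 and -0.018, CXCL8 1.25 and 1.06, IL18 0.067 and 0.28, and SOCS2 0.10 with the block. With limma at pseudocounts of 1 and 0.1 it was reversed for NFKBIZ 0.41 and 0.42, JAK1 0.46 and 0.47, SOCS2 0.28 and 0.45, SOCS3 -0.022, CXCL8 0.098 and 0.099, LIF 0.10 and 0.12. JAK1 was also positive with DESeq2 and with RLE factors (0.014) and without the filter (0.027), and with the block SOCS2 was at 0.067 and LIF at 0.27. In the paired fit without day 7 the reversed values were NFKBIZ 0.090, JAK1 0.017, SOCS2 0.18, LIF 0.33, without day 9 JAK1 0.063, and without day 11 SOCS2 0.54, LIF 0.71. Without 1 library the ranges that crossed 0 were NFKBIZ -0.70 to 0.72, JAK1 -0.16 to 0.088, CXCL2 -0.12 to 2.85, TNFAIP3 -0.066 to 1.25, SOCS2 -0.57 to 0.71, CXCL1 -0.38 to 1.78, CXCL5 -0.068 to 0.69, CXCL8 -1.57 to 0.23, LIF -0.48 to 0.62. Depth limits the members under about 100 counts per library, such as TLR6, SOCS2 and CXCL10.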
